A study of Homo sapiens with 10 samples.

Results

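The genes described are the 7 Eph receptors and ephrins of chromosome 1 that the array table covers: the receptors EPHA2, EPHA8, EPHA10 and EPHB2 and the ligands EFNA1, EFNA3 and EFNA4. They were taken by symbol, as all rows of the table that list one of these genes and no other. This gave 102 of the 56949 rows that list a gene (17 for EPHA2, 19 for EPHA8, 22 for EPHA10, 23 for EPHB2, 8 for EFNA1, 7 for EFNA3 and 6 for EFNA4), and 7 of 4713 genes. A further 2 rows that list both EFNA4 and EFNA3 were set aside. Rows were taken as probe sets for separate stretches of a gene, and the value of a gene is the mean of its rows. Levels are not set against each other between genes, since each probe responds in its own way.

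Eph receptors are receptor tyrosine kinases, and their ligands, the ephrins, are held on the surface of the neighbouring cell, so that signalling needs contact between cells. Ephrins of the A class carry a lipid anchor and bind chiefly EphA receptors, while B-class ephrins span the membrane and bind chiefly EphB receptors. In the intestine EphB receptors are made in the crypt under Wnt control and help to sort cells along the crypt axis, and EphA receptors with A-class ephrins are known regulators of epithelial adhesion and migration.

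Expression was measured in SW620, a human colon cancer cell line, on 10 arrays. The groups were 3 arrays of lung metastasis derivatives, 3 arrays of liver metastasis derivatives and 4 arrays of parental cells, and all are labelled as biological replicates of the same line with balb/c given as the strain. The derivatives came from metastases that SW620 cells formed in nude mice and were grown in culture before RNA was taken, so all groups are cultured cells in the same serum-containing medium. Whether the arrays of a derivative hold different metastases or repeat cultures is not given by the labels, and p-values therefore measure the spread between these arrays only. Across all rows, parental arrays 1 to 3 correlated with each other at 0.986 to 0.988 and with parental array 4 at 0.965 to 0.968 (Pearson's r over rows, which are not independent). With the lung arrays parental array 4 correlated at 0.963 to 0.964, slightly less than with parental arrays 1 to 3. Parental arrays 1 to 3 correlated with the lung arrays at 0.9405 to 0.9569. Parental array 4 and the 3 lung arrays stood apart from the other 6 arrays in earlier results of these data. This split is called the array set here, the labels give no batch, and a model that also holds the array set compares the lung arrays with parental array 4 alone.

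The promoters of the 3 members whose gene means were called in both derivatives are shown first. No link between a promoter's letters and a change was tested. Each is a window of 300 bases that ends 50 bases past the start of the gene, on the plus strand, from the RefSeq table of GRCh38.p14. Capitals mark the GC box, GGGCGG read on either strand, a motif bound by Sp-family factors and present in 45.0% of 35116 promoters of the same length.
EFNA4, chr1:155063490-155063789: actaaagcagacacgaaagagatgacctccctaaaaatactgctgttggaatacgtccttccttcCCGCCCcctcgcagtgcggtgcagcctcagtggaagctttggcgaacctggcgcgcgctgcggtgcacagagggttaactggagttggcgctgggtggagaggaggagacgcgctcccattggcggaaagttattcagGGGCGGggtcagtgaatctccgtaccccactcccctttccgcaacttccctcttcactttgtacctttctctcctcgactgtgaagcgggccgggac
EPHB2, chr1:22710588-22710887: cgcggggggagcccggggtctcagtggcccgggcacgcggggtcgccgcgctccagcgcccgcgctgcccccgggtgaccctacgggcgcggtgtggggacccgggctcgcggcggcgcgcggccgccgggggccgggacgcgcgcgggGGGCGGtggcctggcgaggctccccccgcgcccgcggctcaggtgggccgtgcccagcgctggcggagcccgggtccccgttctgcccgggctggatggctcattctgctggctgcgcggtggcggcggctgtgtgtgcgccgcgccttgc
EFNA1, chr1:155127626-155127925: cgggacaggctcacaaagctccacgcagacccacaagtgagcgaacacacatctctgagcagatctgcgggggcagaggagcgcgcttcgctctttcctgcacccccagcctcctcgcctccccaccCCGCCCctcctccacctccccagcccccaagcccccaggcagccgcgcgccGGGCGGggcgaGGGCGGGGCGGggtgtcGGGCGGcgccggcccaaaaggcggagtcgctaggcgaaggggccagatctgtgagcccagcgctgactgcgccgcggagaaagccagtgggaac
The EFNA4 promoter, of the gene that rose, had 58.3% GC, near the median of all promoters, 58.7%. Its 20 CpG pairs were above the median of 14. Those of the genes that fell were richer, with 83.0% GC and 49 CpG pairs in EPHB2 and 71.7% and 28 in EFNA1. The promoters of EFNA3 (69.3% and 28) and EPHA2 (64.3% and 20), called in neither derivative, were also above both medians. That of EPHA8 had 82.7% and 51. A GC box was found once in EPHB2, in 2 places in EFNA4 and in 5 in EFNA1, of which 2 overlap. The TCF/LEF core CTTTGA, searched on both strands because EPHB2 is a known Wnt target, is held by 12.9% of promoters and was found in none of these 3 windows. Of the 7 members 6 matched a promoter in the table (EPHA10 did not), and CTTTGA was found among these in that of EPHA2 alone. A match describes letters and not a bound site.

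Among the 7 gene means the ligand EFNA4 rose in both derivatives, and the receptor EPHB2 and the ligand EFNA1 fell in both. The receptors EPHA10 and EPHA8 fell in lung derivatives as well, while EPHA2 and EFNA3 were called in neither. A gene was called at an adjusted p under 0.05 from limma, adjusted by the Benjamini-Hochberg method over all 4713 genes. Of the 7 members 5 passed in lung derivatives, 1 as higher and 4 as lower, where 30.1% of all genes were called (12.9% higher and 17.3% lower). In liver derivatives 3 of 7 were called, 1 higher and 2 lower, where 7.83% of all genes were called (4.33% higher and 3.5% lower). Both comparisons use the same parental arrays, so they are not independent of each other. The arrays hold bulk RNA, so a change in the share of cells that make a transcript and a change in RNA per cell cannot be told apart. The medians of all genes moved by -0.01 in lung and 0.01 in liver derivatives on the log2 scale.

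**Figure D1:**
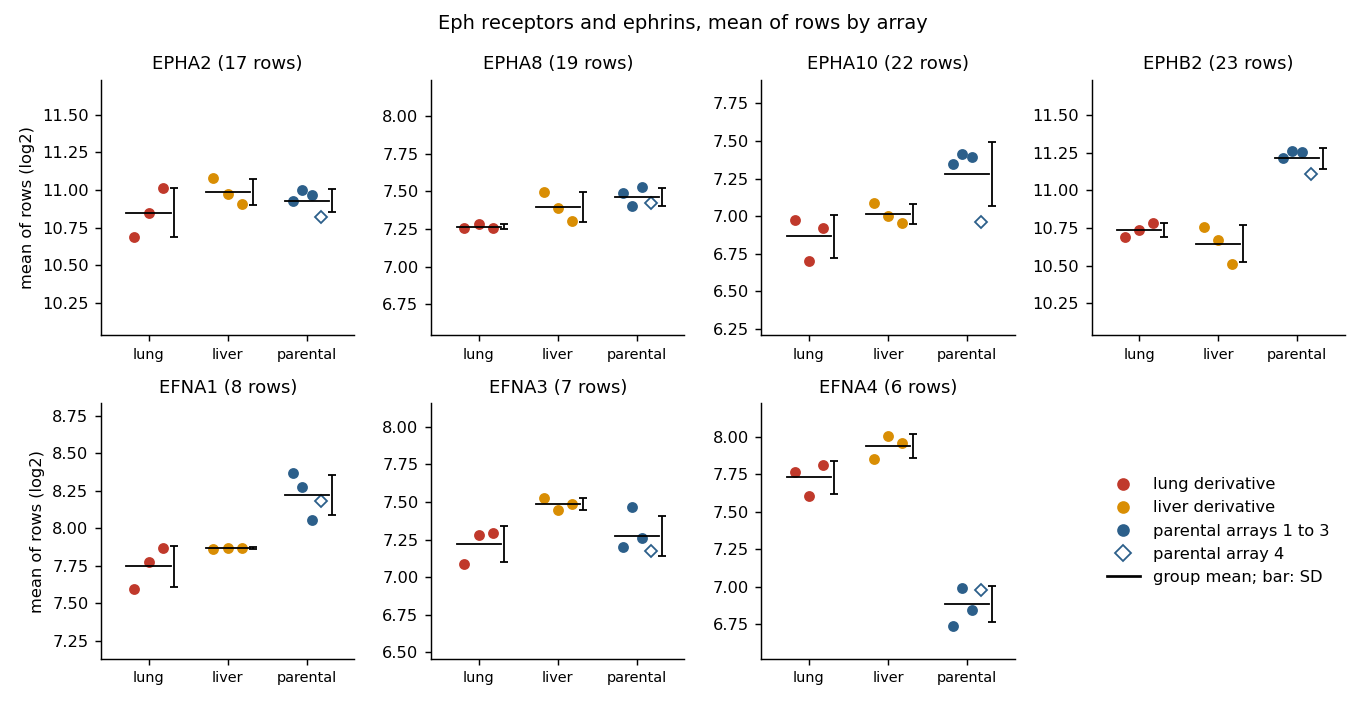
Mean of the rows of each gene on the log2 scale (vertical axes, which start above 0 and all span the same number of units) in each array of lung derivatives, liver derivatives and parental cells, with the group mean as a line and the SD as a bar. EFNA4 lies at 7.60 to 8.004 in all 6 derivative arrays and at 6.74 to 6.99 in parental cells, EPHB2 lies lower in every derivative array, and in EPHA10 parental array 4 sits at the level of the derivatives.

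EFNA4 encodes a lipid-anchored A-class ephrin. Its mean was 7.77, 7.60 and 7.81 in the lung arrays and 7.85, 8.004 and 7.96 in the liver arrays, against 6.74, 6.99, 6.84 and 6.98 in the parental arrays. Each derivative lay clear of the parental arrays, as did 32.3% of all genes in lung and 20.2% in liver derivatives in either direction, and parental array 4 lay with the other parental arrays. EFNA4 was 1.79-fold higher in lung derivatives (log2 change 0.84, SE 0.08, limma adjusted p = 7.28e-05) and 2.07-fold higher in liver derivatives (1.05, SE 0.08, adjusted p = 1.05e-05). Among 4713 genes ranked from the highest change, it stood 46th in lung and 27th in liver derivatives. With the array set in the model the lung change was 0.75 (SE 0.12, adjusted p = 0.00571), and EFNA4 was then the single member called in lung derivatives, where 5.75% of genes were called. In liver derivatives that model called 4 members, EFNA4, EPHB2, EFNA1 and EPHA10, where 8.95% of genes were called.

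All 6 EFNA4 rows had higher values in both derivatives, and in each of them every derivative array lay above every parental array. Such separation with higher derivative values was seen in 9.31% of all rows in lung and 8.59% in liver derivatives. By the fit, 4 of the 6 rows were called higher in lung derivatives, against 5.15% of all rows, and 4 in liver derivatives, against 1.15%. The size of the change differed between rows. Row 7905917 had 8.39, 8.43 and 8.53 in lung arrays and 8.82, 8.77 and 8.85 in liver arrays, against 6.58, 7.15, 6.53 and 7.07 in parental arrays. This was the largest change among the rows, 3.07-fold in lung (log2 change 1.62, SE 0.16, adjusted p = 0.00122) and 3.96-fold in liver derivatives (1.98, SE 0.16, adjusted p = 0.000395). The brightest row, 7905913, had 8.75, 8.58 and 8.78 in lung arrays and 8.58, 8.65 and 8.64 in liver arrays, against 8.45, 8.28, 8.43 and 8.31 in parental arrays. It moved least, by 0.34 in lung (adjusted p = 0.0451, or 0.204 with the array set in the model) and by 0.26 in liver derivatives (adjusted p = 0.285). The size of the EFNA4 rise, and in liver derivatives its call, thus depended on which rows stood for the gene.

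In the remaining rows, row 7905914 spread most among parental arrays, at 5.04, 6.32, 5.63 and 6.87, with parental array 4 highest, against 7.22 to 7.52 in lung and 7.21 to 7.63 in liver arrays. It was called in lung (1.41, adjusted p = 0.0377) and not in liver derivatives (1.41, adjusted p = 0.108). Against parental array 4 alone, in the model with the array set, its lung change was 0.50 (adjusted p = 0.594). Row 7905912 was called in both (0.80 in lung, 1.14 in liver derivatives), its lung change missed the threshold in that model (0.83, adjusted p = 0.225), and its values and those of row 7905914 belong to the dimmest 25% of rows of the table. Rows 7905915 and 7905916 were called in liver derivatives (0.81 and 0.70) and missed the threshold in lung derivatives (0.39 and 0.49, adjusted p = 0.0995 and 0.0569). Without the dimmest rows the EFNA4 mean still rose, by 0.71 in lung and 0.94 in liver derivatives. Of the 2 rows shared with EFNA3, row 7905910 was called higher in lung derivatives (0.71, adjusted p = 0.0294) and not in liver derivatives (0.50, adjusted p = 0.244), and row 7905911 was called in neither.

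**Figure D2:**
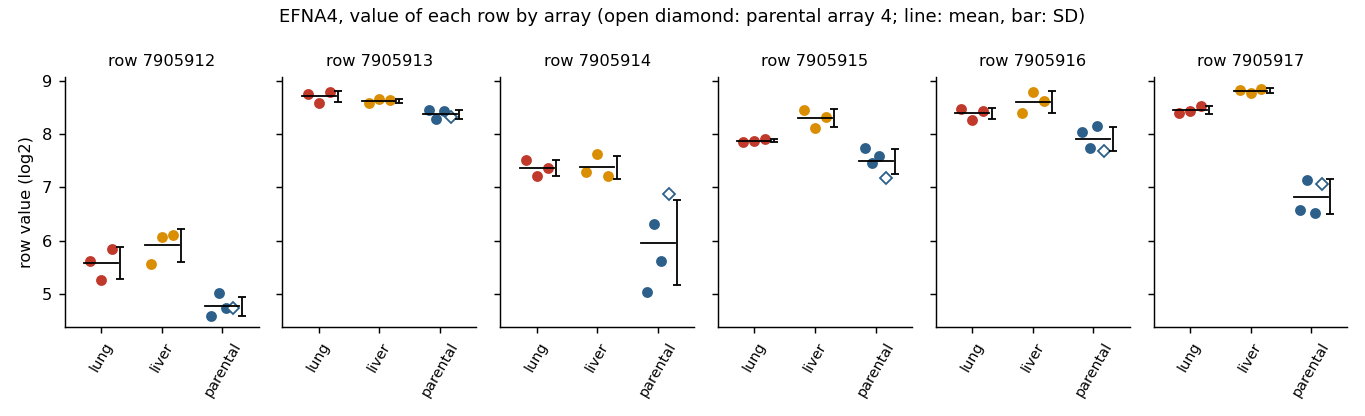
Log2 value of each of the 6 EFNA4 rows (1 panel a row, common vertical axis that starts above 0) by array in lung derivatives, liver derivatives and parental cells, with group means as lines and SD as bars. The derivative arrays lie above the parental arrays in every row, by most in row 7905917 and by least in row 7905913, the brightest.

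EPHB2 is the B-class receptor of the set and a crypt gene known as a target of Wnt signalling. Its mean was 10.69, 10.73 and 10.78 in lung arrays and 10.75, 10.67 and 10.51 in liver arrays, against 11.22, 11.26, 11.26 and 11.11 in parental arrays. All 6 derivative arrays lay below all 4 parental arrays, and parental array 4 was the lowest of the parental arrays. Separation from the parental arrays, in either direction, was seen in 32.3% of all genes in lung and 20.2% in liver derivatives. EPHB2 was 1.39-fold lower in lung derivatives (log2 change -0.48, SE 0.07, adjusted p = 0.00121) and 1.48-fold lower in liver derivatives (-0.57, SE 0.07, adjusted p = 0.000417). Against parental array 4 alone, with the array set in the model, the lung change was -0.38 and missed the threshold (adjusted p = 0.0514). Neither call was lost when any single array was left out.

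Lower values ran along most of the EPHB2 rows. Values were lower in 21 of 23 rows in lung derivatives and in 22 of 23 in liver derivatives. In lung derivatives 16 rows were called lower and 1 higher, against 7.99% lower and 5.15% higher over the whole table. In liver derivatives 11 rows were called, all lower, by -0.54 to -1.002, against 1.04% of all rows. The model that holds the array set called 1 of the 23 rows in lung derivatives, where it called 1.12% of all rows, and 15 in liver derivatives, where it called 2.57%. Rows of a gene share their RNA and are not replicates. Row 7898819 showed the largest fall in liver derivatives, with 9.33, 9.40 and 9.23 in lung arrays and 9.17, 9.20 and 8.91 in liver arrays, against 10.02, 10.17, 9.98 and 10.21 in parental arrays. Its change was -0.77 in lung (adjusted p = 0.00516) and -1.002 in liver derivatives (adjusted p = 0.00174), and it was called in both with the array set in the model (-0.89 and -0.96), as the single EPHB2 row called there in lung derivatives. Parental array 4 was here the highest parental array. The brightest row, 7898823, held 12.004, 12.26 and 12.06 in lung arrays and 12.40, 12.24 and 12.15 in liver arrays, against 12.67, 12.79, 12.63 and 12.58 in parental arrays. By this row alone in place of the gene mean, the liver change was -0.40 and missed the threshold (adjusted p = 0.0526).

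Single EPHB2 rows departed from this. Row 7898810 held 10.77, 10.76 and 10.77 in lung arrays and 10.25, 9.85 and 9.58 in liver arrays, against 9.99, 10.05, 10.34 and 10.29 in parental arrays. It is the first EPHB2 row by number and the single one called higher in lung derivatives (0.60, adjusted p = 0.0405), while its liver change of -0.27 was not called (adjusted p = 0.57). Row 7898829 held 11.95, 11.96 and 12.01 in lung arrays and 11.30, 11.14 and 11.13 in liver arrays, against 11.85, 12.05, 11.86 and 12.20 in parental arrays. The liver arrays were lower there (-0.80, adjusted p = 0.00597), and the lung arrays lay within the parental range (-0.02, adjusted p = 0.92). With the array set in the model the lung change of row 7898829 was -0.23 and that of row 7898810 was 0.48, and neither was called.

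**Figure D3:**
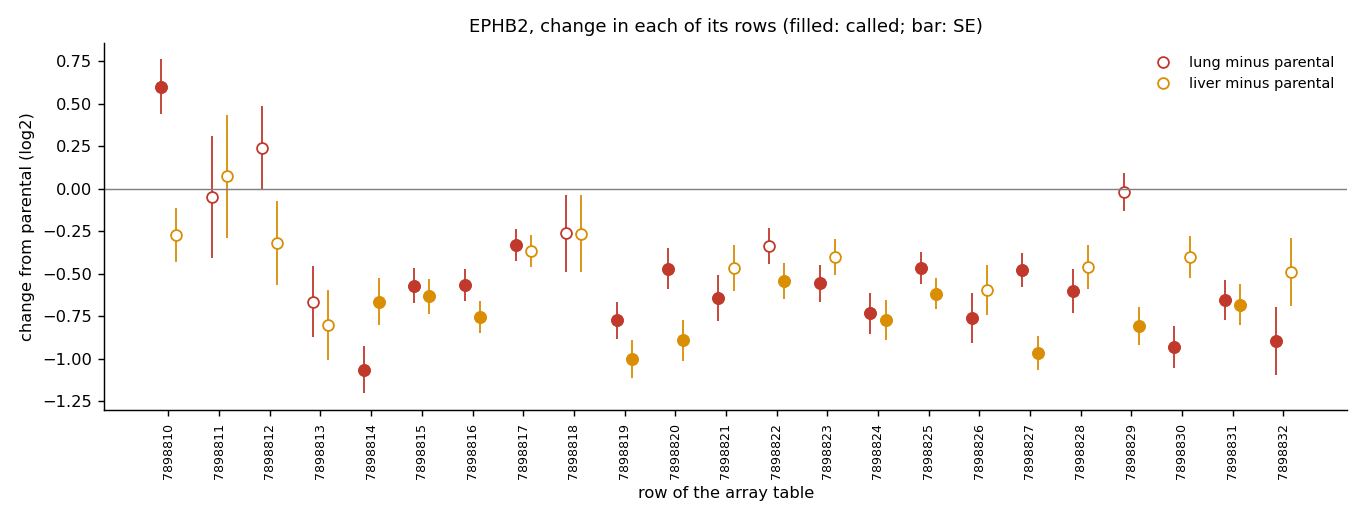
Log2 change from parental cells in each of the 23 EPHB2 rows, in order of row number, for lung and liver derivatives, with filled symbols for called rows and the SE as bars. Most rows lie below 0 in both, and rows 7898810 and 7898829 show the lung derivatives at 0.60 and -0.02 where the liver derivatives lie at -0.27 and -0.80.

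EFNA1, an A-class ephrin known as a ligand of EPHA2, had means of 7.60, 7.78 and 7.86 in lung arrays and 7.86, 7.87 and 7.87 in liver arrays, against 8.36, 8.28, 8.06 and 8.18 in parental arrays. Each derivative array lay below each parental array, where 32.3% of all genes in lung and 20.2% in liver derivatives were separated in either direction. EFNA1 was 1.39-fold lower in lung derivatives (-0.47, SE 0.08, adjusted p = 0.00322) and 1.28-fold lower in liver derivatives (-0.35, SE 0.08, adjusted p = 0.0248). The shift was spread over the rows, with values lower in 8 of 8 rows in lung and 7 of 8 in liver derivatives. Of the 8 rows 2 were called in lung derivatives, row 7905934 (-0.75) and row 7905936 (-0.69), where 13.1% of all rows were called. Against parental array 4 alone these changes were -0.34 and -0.40. In liver derivatives 0 rows were called, where 2.2% of all rows were. There 4 of the 8 had an unadjusted limma p under 0.05, as did 6853 of all 56949 rows. The brightest row, 7905931, held 9.005, 8.98 and 9.32 in lung arrays and 9.02, 9.12 and 9.28 in liver arrays, against 9.36, 9.44, 9.55 and 9.60 in parental arrays. The liver call was lost when parental array 1 (-0.31, adjusted p = 0.0709), parental array 2 (-0.33, adjusted p = 0.075) or liver array 1, 2 or 3 (-0.35, -0.36 and -0.35, adjusted p = 0.0898 to 0.0935) was left out. That call was also lost by the brightest row (-0.35, limma adjusted p = 0.175) and by the median of the rows (-0.36, adjusted p = 0.0585). Against parental array 4 alone the lung change was -0.43 and was not called (adjusted p = 0.0801).

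EPHA10, an Eph receptor whose kinase domain is held to be inactive, had means of 6.97, 6.70 and 6.92 in lung arrays and 7.09, 6.997 and 6.96 in liver arrays, against 7.35, 7.41, 7.39 and 6.96 in parental arrays. Parental array 4 stood apart from parental arrays 1 to 3 and lay at the level of the derivatives. EPHA10 was lower in lung derivatives over all 4 parental arrays (-0.41, SE 0.11, adjusted p = 0.0187), and the change against parental array 4 alone was -0.10 (adjusted p = 0.606). In liver derivatives it was not called (-0.26, adjusted p = 0.222), but was called when parental array 4 was left out (-0.37, adjusted p = 0.0119). The lung call was lost without parental array 1 (-0.39, adjusted p = 0.0522), parental array 2 (-0.37, adjusted p = 0.0563) or lung array 2 (-0.33, adjusted p = 0.0621). Of its 22 rows 12 belong to the dimmest 25% of the table, and without those the changes were -0.13 in lung and -0.04 in liver derivatives, neither called.

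A few EPHA10 rows carried most of that shift. Rows 7915066, 7915063 and 7915064, each called lower in lung derivatives, belong to the dimmest 25% of the table, and row 7915079 does not. Row 7915066 held 4.39, 3.66 and 4.78 in lung arrays and 5.78, 5.44 and 4.46 in liver arrays, against 7.09, 7.12, 6.76 and 7.09 in parental arrays. It fell by 2.74 in lung (adjusted p = 0.00291) and by 1.79 in liver derivatives (adjusted p = 0.0258), and here parental array 4 lay with the other parental arrays. Once the array set was in the model these changes were -2.82 (adjusted p = 0.0562) and -1.77 (adjusted p = 0.0553). Row 7915063 held 5.67, 5.84 and 6.19 in lung arrays and 6.67, 5.93 and 6.06 in liver arrays, against 7.82, 8.33, 8.08 and 7.06 in parental arrays. It fell by 1.93 in lung (adjusted p = 0.00747) and by 1.60 in liver derivatives (adjusted p = 0.028), while against parental array 4 alone the lung change was -1.16 and was not called (adjusted p = 0.149). Row 7915064 was lower in lung derivatives (-1.09, adjusted p = 0.0395; -0.27 against parental array 4) and row 7915079 higher (0.48, adjusted p = 0.0151; 0.37 against parental array 4). The brightest row, 7915083, held 10.36, 10.14 and 9.93 in lung arrays and 10.47, 10.33 and 10.31 in liver arrays, against 10.38, 10.26, 10.43 and 9.79 in parental arrays, and the groups overlapped.

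EPHA8, a receptor best known from the developing nervous system, had means of 7.26, 7.28 and 7.25 in lung arrays and 7.50, 7.39 and 7.30 in liver arrays, against 7.49, 7.41, 7.53 and 7.42 in parental arrays. It was 1.15-fold lower in lung derivatives (-0.20, SE 0.06, adjusted p = 0.0377), and -0.16 against parental array 4 (adjusted p = 0.31). The liver change was -0.07 (95% interval -0.21 to 0.07). The median of its rows pointed the other way in lung derivatives (0.19, adjusted p = 0.205). The call did not hold without parental array 1, 2 or 3 (-0.19, -0.22 and -0.18), without lung array 1, 2 or 3 (-0.20, -0.21 and -0.19) or without liver array 2 (-0.20), at adjusted p = 0.0578 to 0.0954. It was also lost with median centring (-0.16, adjusted p = 0.093), with trend and robust moderation (adjusted p = 0.0634) and when the lung and parental arrays were fitted alone (adjusted p = 0.0596). Without the dimmest rows the EPHA8 change in lung derivatives was -0.047 (adjusted p = 0.621). Of 19 rows 1 was called in lung derivatives, where 13.1% of all rows were called. This was row 7898778, with 5.51, 4.39 and 5.63 in lung arrays and 6.83, 6.39 and 6.57 in liver arrays, against 6.91, 6.50, 6.45 and 6.58 in parental arrays. That row, among the dimmest 25% of the table, fell by 1.43 in lung derivatives (adjusted p = 0.0158). Against parental array 4 its lung change was -1.40. In row 7898779, also among the dimmest 25%, the lung change was -0.42 over all parental arrays and -0.76 against parental array 4. The brightest EPHA8 row, 7898789, held 9.33, 9.87 and 9.63 in lung arrays and 9.55, 9.55 and 9.81 in liver arrays, against 9.94, 10.37, 10.09 and 9.83 in parental arrays.

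EPHA2, the EphA receptor best known from epithelial cells and carcinomas, was called in no row and no comparison. Its mean was 10.69, 10.84 and 11.02 in lung arrays and 11.08, 10.97 and 10.91 in liver arrays, against 10.93, 11.001, 10.97 and 10.82 in parental arrays. The change was -0.08 in lung derivatives (95% interval -0.26 to 0.10, adjusted p = 0.483) and 0.06 in liver derivatives (-0.13 to 0.24, adjusted p = 0.809). The brightest row, 7912711, held 12.48, 12.52 and 12.59 in lung arrays and 12.94, 12.69 and 12.60 in liver arrays, against 12.70, 12.74, 12.84 and 12.55 in parental arrays. Across its 17 rows 3 had an unadjusted p under 0.05 in lung and 1 in liver derivatives.

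EFNA3, a further A-class ephrin, had means of 7.09, 7.28 and 7.30 in lung arrays and 7.53, 7.45 and 7.49 in liver arrays, against 7.20, 7.47, 7.26 and 7.17 in parental arrays. It was not called in lung (-0.06, 95% interval -0.24 to 0.13) or in liver derivatives (0.21, 95% interval 0.03 to 0.39, adjusted p = 0.185). Of its 7 rows 1 was called in lung derivatives, where 13.1% of all rows were called, and 0 in liver derivatives, where 2.2% were. Row 7905923, in the dimmest 25% of the table, held 5.74, 5.95 and 4.90 in lung arrays and 6.63, 6.85 and 6.97 in liver arrays, against 6.57, 6.89, 6.42 and 6.55 in parental arrays. It was lower in lung derivatives (-1.07, adjusted p = 0.0228). Without such dim rows the lung change of EFNA3 was 0.11. The brightest row, 7905926, held 8.37, 8.30 and 8.55 in lung arrays and 8.31, 8.10 and 8.23 in liver arrays, against 7.94, 8.27, 8.18 and 8.498 in parental arrays.

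**Figure D4:**
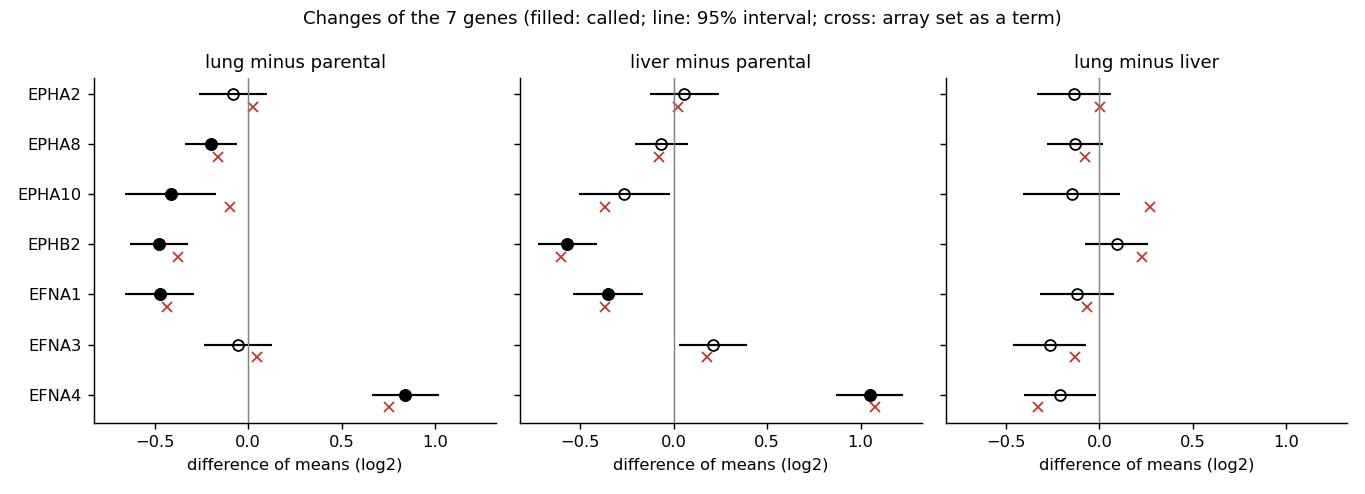
Log2 difference of the gene means (horizontal axes) for the 7 members in lung against parental, liver against parental and lung against liver, with 95% intervals as lines, filled symbols for called genes and crosses for the value with the array set in the model. EFNA4 stands at 0.84 and 1.05 from parental cells, while in lung against liver no symbol is filled.

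Between the derivatives themselves limma called 0 of 7 gene means, where 19.9% of all genes were called (8.02% higher and 11.9% lower in lung). None was called either with the array set in the model, where 0.0849% of genes were. An unadjusted limma p under 0.05 was reached by 1816 of all 4713 genes, in either direction. Of the 7 members 2 reached it, both lower in lung than in liver derivatives: EFNA3 (-0.27, adjusted p = 0.054) and EFNA4 (-0.21, 95% interval -0.40 to -0.02, adjusted p = 0.104). In both genes every lung array lay below every liver array, as also in EPHA8, and such separation was seen in 46% of all genes in either direction. The EPHB2 difference was 0.09 (95% interval -0.08 to 0.26) and that of EFNA1 -0.12 (-0.32 to 0.08). Among the 102 rows 7 were called, 4 higher and 3 lower in lung, where 12.6% of all rows were called (5.02% higher and 7.61% lower). EPHB2 rows 7898810 (0.87), 7898829 (0.78) and 7898827 (0.49) were higher in lung than in liver derivatives and row 7898830 was lower (-0.53). EPHA10 row 7915079 was higher (0.40), and EPHA8 row 7898778 (-1.42) and EFNA3 row 7905923 (-1.28) were lower. None of these 7 rows was called with the array set in the model, where 0.0632% of rows were called.

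Taking rows of all members, 29 of 102 passed in lung derivatives, 6 as higher and 23 as lower, where 13.1% of all rows were called. In liver derivatives 17 were called, 4 higher and 13 lower, which is 16.7% of the members' rows where 2.2% of all rows were called. EPHB2 and EFNA4 together held 15 of those 17 liver calls and 21 of the 29 lung calls. In the model that holds the array set 3 member rows were called in lung derivatives, where 1.12% of all rows were called, and 20 in liver derivatives, where 2.57% were.

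Genes that carry Eph and ephrin signals inside the cell, or that shed and degrade the receptors and ligands, were read from a list of 32, of which 29 were measured. In lung derivatives 2 were higher and 2 lower, 13.8% of the list where 30.1% of all genes were called, with a median change of -0.03. The lipid kinase PIK3C2B (-0.63, adjusted p = 9.33e-05) and the phosphoinositide kinase subunit PIK3R3 (-0.33, adjusted p = 0.0176) fell, and the exchange factor VAV3 (0.22, adjusted p = 0.0248) and the Src-family kinase FGR (0.21, adjusted p = 0.0359) rose. Of these, PIK3C2B was also called against parental array 4 (-0.56). In liver derivatives 2 were higher and 1 lower, 10.3% of the list where 7.83% of all genes were called, with a median of 0.03. The receptor phosphatase PTPRO (0.33, adjusted p = 0.0263) and the gamma-secretase subunit PSEN2 (0.27, adjusted p = 0.0141) rose and PIK3C2B fell (-0.25, adjusted p = 0.0375). Between lung and liver derivatives 5 were lower in lung, 17.2% of the list where 19.9% of all genes were called, with PIK3C2B (-0.39), PSEN2 (-0.25), PIK3R3 (-0.36) and the phosphatase PTPN11 (-0.31) at the smallest adjusted p, and 0 of these were called with the array set in the model.

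The members lie at 4 places along chromosome 1, and the measured genes next to them were read against the same shares of all genes called, 30.1% in lung derivatives (12.9% higher and 17.3% lower) and 7.83% in liver derivatives. EFNA4, EFNA3 and EFNA1 lie beside each other, and of their 8 nearest measured neighbours 0 were called in liver derivatives, with changes from -0.10 to 0.13. In lung derivatives 2 of the 8 were called higher, DCST1 (0.26) and the mannosyltransferase subunit DPM3 (0.23). EFNA4 and EFNA1 thus moved in opposite directions within a run of genes whose changes were smaller. Around EPHA8 and EPHB2, 0 of 11 neighbours were called in liver derivatives (-0.11 to 0.14), and LUZP1 was lower in lung derivatives (-0.27). Beside EPHA2, SRARP was higher in lung (1.02, adjusted p = 0.000182) and in liver derivatives (0.57, adjusted p = 0.00881), and FBXO42 (-0.21) and SZRD1 (-0.32) were lower in lung derivatives.

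Around EPHA10, 6 of 8 neighbours were called lower in lung derivatives, where 17.3% of all genes were, with a median change of -0.32, and 0 in liver derivatives, where 7.83% of all genes were called. They were the Wnt agonist RSPO1 (-0.31), AIRIM (-0.40), the mitotic protein CDCA8 (-0.33), MANEAL (-0.66), C1orf122 (-0.40) and the metal-responsive factor MTF1 (-0.29). With the array set in the model these 6 changes were between -0.31 and -0.09, so, as with EPHA10 itself, they were smaller against parental array 4.

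**Figure D5:**
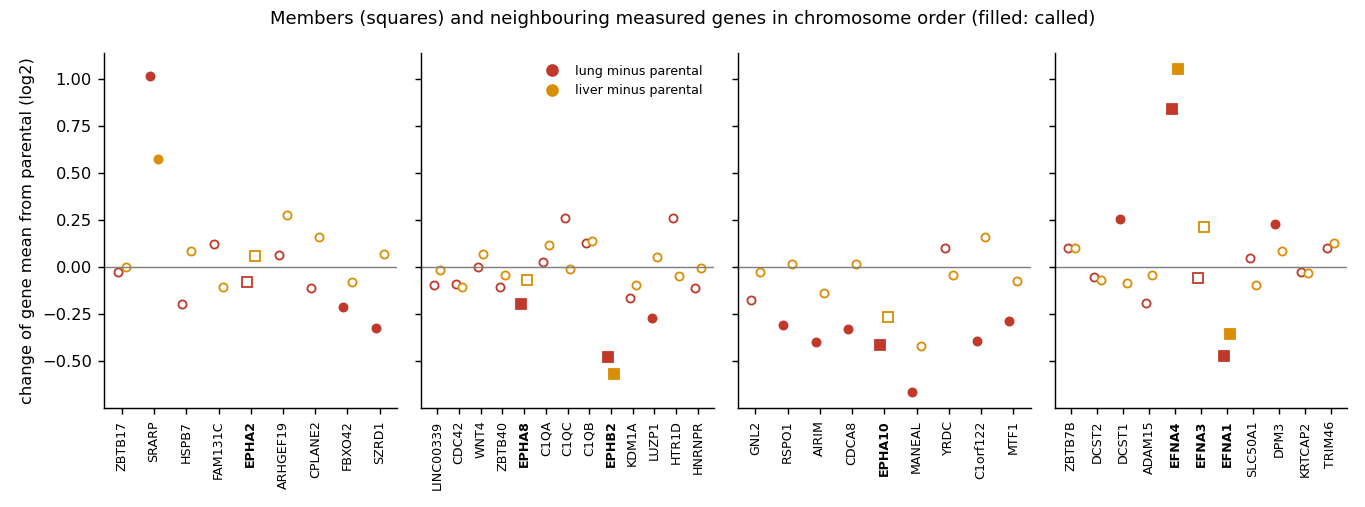
Log2 change from parental cells in the members (squares) and their nearest measured neighbours (circles) in chromosome order at 4 places on chromosome 1, for lung and liver derivatives, with filled symbols for called genes. EFNA4 stands above and EFNA1 and EPHB2 below neighbours that lie near 0, whereas most neighbours of EPHA10 are lower in lung derivatives, like EPHA10.

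For each member the genes of most similar pattern were taken as the 2 with the highest Pearson's r of gene means over the 10 arrays, among 4153 genes with at least 3 rows. The arrays fall into groups, so r can reflect differences between groups, and the r of deviations from the group means is given second. EFNA4 was most like the small secreted protein MUCL1 (0.99 and 0.67) and the lectin-like receptor KLRC3 (0.98 and 0.34). EPHB2 was most like CAMK2N1, a kinase inhibitor (0.98 and 0.72), and the calcium channel subunit CACNB3 (0.98 and 0.71). EFNA1 was most like the membrane skeleton protein EPB41 (0.97 and 0.82) and the tight junction protein CGN (0.96 and 0.77). EPHA10 was most like the folate receptor FOLR1 (0.96 and 0.89) and the laminin chain LAMB3 (0.95 and 0.90). EPHA8 was most like the receptor phosphatase PTPRU (0.97 and 0.90) and the kinase CLK2 (0.93 and 0.76). EPHA2 was most like the sorting nexin SNX15 (0.99 and 0.99) and the transcription repressor HES4 (0.93 and 0.92), and EFNA3 was most like the tetraspanin TSPAN14 (0.94 and 0.85) and the protease PCSK7 (0.93 and 0.82).

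The label of a colon epithelial line was set against 5 measured epithelial markers. The keratins KRT8, at 12.71 to 12.91 in all arrays, and KRT18 were called in neither derivative, nor was the junction protein F11R, while ELF3 (-0.25 in lung and -0.51 in liver derivatives) and TSPAN8 (-0.43 and -1.12) fell. Human genes that mark other tissues were read for the same arrays. The hosts were mice and the array reads human genes, so these values do not measure host cells directly. In lung derivatives, where 30.1% of all genes were called, 3 of 6 lung epithelial markers were higher (SFTPA1, 0.39, SFTPA2, 0.45, and PDPN, 0.35), 1 of 4 endothelial markers was higher (SELE, 0.29), 2 of 6 leukocyte markers were higher (LYZ and PTPRC, 0.19), and 0 of 5 hepatocyte markers were called. Of 5 stromal markers DCN was higher (0.26) and LUM lower (-0.62) there. In SFTPA1, SFTPA2, DCN and LUM the lung arrays overlapped the parental arrays. With the array set in the model, which leaves parental array 4 alone for comparison, several lung changes were smaller. These were SFTPA1 (0.17), SFTPA2 (0.42), PDPN (0.29), SELE (0.25), LYZ (1.18) and DCN (0.06). Larger ones were seen in PTPRC (0.22), LUM (-1.15), ELF3 (-0.40) and TSPAN8 (-0.58). In liver derivatives, where 7.83% of all genes were called, LYZ was higher, LUM was lower (-1.97), and 0 lung epithelial, endothelial and hepatocyte markers were called. Beside the EFNA4 rise, the leukocyte list, with LYZ as its largest change (1.64 in lung and 0.97 in liver derivatives), had a summed log2 level of 9.79 to 9.92 in lung and 9.41 to 9.60 in liver arrays, against 9.13 to 9.42 in parental arrays. The other 5 leukocyte markers had log2 changes of 0.10 to 0.19 in lung and of -0.14 to 0.13 in liver derivatives, where LYZ was the single leukocyte marker called. The lung epithelial list had 10.08 to 10.21 in lung and 9.94 to 10.08 in liver arrays, against 9.85 to 10.02 in parental arrays, and the part of these lists in the members' changes was not tested.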

How the data were processed

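RNA was measured on Affymetrix HG1.0ST arrays after biotin labelling, per the labels. The table holds deposited log2 values, made by the authors with RMA and oligo, per the submitters' processing notes (versions and genome build are not given in the sources used here). They lie between 2.55 and 13.99, with array medians of 8.52 to 8.60, and RMA sets arrays to a common distribution, so a change in total RNA cannot be seen. The table used has 65535 rows and covers almost only chromosomes 1, 10, 11 and 12 (4660 of 4713 genes). Array number limits the precision, and no depth applies.

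From these values, 56949 rows with a gene, and means of the 54806 rows with 1 symbol for 4713 genes, were fitted with limma 3.58.1 (R 4.3.3; lmFit and eBayes, 3 groups, all 10 arrays, no filter), two-sided, with Benjamini-Hochberg adjustment over the whole table. The code was tested on simulated data. Of 4727 listed symbols, 601 were updated through the RefSeq table. Named genes were all members, every called member row, up to 4 called partners a comparison, called neighbours among the nearest 4 on each side, and the 2 most similar genes. Members and lists were chosen with earlier results of these data known. Alternatives were array set, replicate block, normalization, dim rows, variance model, groups fitted, gene summary and leaving out each array. Same-numbered arrays did not deviate together (9 pairs, r of -0.12 to 0.04), so replicate numbers were not used for pairing.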

Additional observations from a re-analysis of the deposited data

Results flagged for a closer look

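In 45 sets of 4 parental values examined (gene means, called rows and brightest rows), 3 had 1 array far from the other 3 by Dixon's criterion, which chance gives in about 1 of 20. The gap, as a share of the whole range, was 0.85 for the EPHA10 mean (7.35, 7.41 and 7.39, with parental array 4 at 6.96), 0.88 for EPHB2 row 7898821 (12.64, 12.59 and 12.62, with parental array 4 at 12.19) and 0.91 for EPHA10 row 7915066 (7.09, 7.12 and 7.09, with parental array 3 at 6.76). In EPHB2 row 7898821 the lung arrays lay at 11.83 to 11.94.

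Lung and liver derivatives differed by limma's test of that difference in 7 of 102 member rows, 6.86%, where 12.6% of all rows were called. EPHB2 row 7898829 was 0.78 higher in lung (adjusted p = 0.0174), row 7898810 was 0.87 higher (adjusted p = 0.0232) and row 7898827 was 0.49 higher (adjusted p = 0.026), whereas row 7898830 differed by -0.53 (adjusted p = 0.0363), with 10.86, 10.80 and 10.76 in lung arrays against 11.43, 11.22 and 11.35 in liver arrays. EPHA10 row 7915079 was 0.40 higher in lung (adjusted p = 0.0339). EPHA8 row 7898778 differed by -1.42 (adjusted p = 0.0255) and EFNA3 row 7905923 by -1.28 (adjusted p = 0.0232). With the array set in the model the same differences were 0.50, 0.71, 0.42, -0.17, 0.26, -1.38 and -1.21, in that order, and none was called.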

How the results depend on the processing

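The calls of EFNA4 and EPHB2 in both derivatives held when any single array was left out, and EFNA4 was lost under 1 alternative, the brightest row in liver derivatives (0.26, adjusted p = 0.161). EPHB2 was lost under that row in liver derivatives (adjusted p = 0.0526) and under the set term in lung derivatives (adjusted p = 0.0514). With the array set as a term 3 member rows and 1 gene were called in lung derivatives, and 0 rows between lung and liver. Fitting the 2 groups alone gave 12 rows in lung derivatives and 1 gene between lung and liver. Leaving out the dimmest rows gave 3 genes in lung derivatives and 1 between lung and liver. The brightest row of each gene gave 3 genes in lung derivatives and 0 in liver derivatives, and the median of rows gave 3 in lung derivatives and 1 between lung and liver. With the replicate block, which pairs nothing in the labels beyond a number, the calls were 10 rows in liver derivatives, and 13 rows and 1 gene between lung and liver, and EFNA1 was lost in liver derivatives (-0.37, adjusted p = 0.0719). Leaving out 1 array gave 15 to 38 rows and 3 to 5 genes in lung derivatives, 6 to 20 rows and 2 to 4 genes in liver derivatives, and 0 to 17 rows and 0 to 1 genes between lung and liver. Leaving out parental array 4 gave 17 rows there. Changes of uncalled or weakly called genes turned sign. In lung derivatives EPHA2 was 0.0265 with the set term and from -0.16 to 3e-04 with 1 array left out (3e-04 without lung array 1), and EFNA3 was 0.0469 with the set term, 0.11 without dim rows, from -0.0933 to 0.0123 with 1 array left out (0.0083 without parental array 2 and 0.0123 without lung array 1), 0.19 by brightest row and 0.20 by median. EPHA8 by median was 0.19 in lung and 0.16 in liver derivatives, and by brightest row EPHA10 was 0.16 and EFNA3 -0.0057 in liver derivatives. Between lung and liver, EPHA2 (0.0054) and EPHA10 (0.27) turned with the set term, EPHA8 (0.0095) and EFNA3 (0.0322) without dim rows, EPHA8 (0.0299), EPHA10 (0.0914) and EFNA3 (0.0046) by median, and EPHB2 (-0.15), EFNA3 (0.19) and EFNA4 (0.0809) by brightest row. Using the 6 arrays outside the set of parental array 4 and the lung arrays, a choice made after seeing the data, liver derivatives had 22 rows and 4 genes called. The causes of these shifts were not tested. Dim rows carry little signal over background, which limits EPHA10, with 12 of its 22 rows among the dimmest 25%.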
